A study of Mus musculus with 24 samples.

Results

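The DNA around 10 genes for transcription factors of the heart was described by its methylation in adult liver, brain and heart. The genes were Gata4, Gata6, Nkx2-5, Tbx5, Tbx20, Tbx3, Hand1, Hand2, Mef2c and Isl1, and their tiles were taken from 10 kb upstream of the first transcription start to the end of the gene, on mm10 with the RefSeq annotation. A tile is a window of 100 bp, and its methylation level is the fraction of reads of its CpGs that were methylated, from 0 to 1. The windows held 480 of the 1005908 tiles in any of the 3 tissue tables and 418 of the 758685 tiles in all 3. The study asked whether autosomal DNA methylation differs with gender in mouse tissues. Reduced representation bisulphite sequencing (RRBS), which reads CpGs near the cut sites of a restriction enzyme, was done on C57Bl/6J mice of 24 weeks, an inbred strain with no transgene or treatment. There were 12 liver libraries (6 male and 6 female), 6 brain libraries (3 male and 3 female) and 6 heart libraries (3 male and 3 female). No source ties a column of the tables to a mouse or a gender, and libraries were therefore grouped by tissue only and genders were not compared.

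These 10 proteins form the core of a network that builds the heart in the embryo and that is still used, in part, by adult heart muscle. Gata4 and Gata6 are zinc finger proteins, Nkx2-5 and Isl1 are homeodomain proteins, Tbx5, Tbx20 and Tbx3 share the T-box DNA-binding domain, Hand1 and Hand2 are basic helix-loop-helix proteins, and Mef2c is a MADS-box protein. Most promoters of such developmental regulators lie in CpG islands, stretches rich in CpGs that stay free of methylation in most tissues, whereas the CpG-poor DNA of introns is usually methylated. Each tissue here is a mixture of cells, so that a level of a tile mixes the share of cells of each type with the level within each type, and these cannot be told apart.

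Of the 418 tiles, 88 had tissue means that differed by 0.3 or more, which is 21.1%, against 13.7% of all tiles. They lay in 7 of the 10 genes: 34 in Gata4, 19 in Gata6, 14 in Tbx5, 10 in Tbx3, 7 in Mef2c and 2 each in Tbx20 and Hand1. Nkx2-5, Hand2 and Isl1 had none. The share of the gene's tiles was 45.3% at Gata4, 30.6% at Gata6, 25% at Mef2c, 20.8% at Tbx3 and 19.4% at Tbx5. It was 6.9% at Hand1 and 6.25% at Tbx20. The 88 tiles were of several kinds, and 6 of them show part of the range. The sequences below are those of the plus strand of mm10, 5′ to 3′, with each CpG in capitals. The first was methylated in liver alone, the second least in heart, the third in heart alone, the fourth least in brain, the fifth least in heart and the sixth most in heart.
Gata4 exon 2, chr14:63241001-63241100: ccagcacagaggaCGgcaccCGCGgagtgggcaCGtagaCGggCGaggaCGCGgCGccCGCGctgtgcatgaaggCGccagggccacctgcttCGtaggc
Gata4 intron 2, chr14:63218201-63218300: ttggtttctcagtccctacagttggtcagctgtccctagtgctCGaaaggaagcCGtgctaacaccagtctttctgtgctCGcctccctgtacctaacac
Tbx5 exon 5, chr5:119841801-119841900: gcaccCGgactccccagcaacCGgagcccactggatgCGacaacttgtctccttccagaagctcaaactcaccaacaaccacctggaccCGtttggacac
Tbx3 exon 7, chr5:119680801-119680900: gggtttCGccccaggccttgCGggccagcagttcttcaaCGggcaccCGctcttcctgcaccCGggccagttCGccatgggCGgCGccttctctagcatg
Mef2c intron 2, chr13:83571501-83571600: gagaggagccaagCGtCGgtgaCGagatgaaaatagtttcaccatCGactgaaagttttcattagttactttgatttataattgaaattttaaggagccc
Tbx20 upstream, chr9:24778901-24779000: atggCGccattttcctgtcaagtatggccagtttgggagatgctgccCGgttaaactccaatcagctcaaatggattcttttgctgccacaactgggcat

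They range from the Gata4 coding exon, with 13 whole CpGs in 100 bp, to the Tbx20 upstream tile with 2. The 88 tiles were searched on both strands for 4 motifs, each with no regard to overlap with another, of the factors themselves and for CCGG, the cut site of MspI. AGATAA, a site form of GATA proteins, was in 0 of the 88 tiles and in 4.24% of all tiles, and the MEF2 form was in 0 and in 0.98%. AGGTGT, the T-box form, was in 6 of 88 tiles (6.82%) and in 5.86% of all tiles. CANNTG, the E-box of basic helix-loop-helix proteins, was in 35 of 88 (39.8%) and in 39.3% of all tiles. CCGG was in 54 of 88 (61.4%) and in 58.1% of all tiles. Over the 418 member tiles the share was 3.59% for AGATAA, 0.478% for the MEF2 form and 3.83% for AGGTGT. For CANNTG it was 28.9% and for CCGG 64.4%. Differences between these shares were not tested. All are matches of letters within 100 bp and are not binding sites.

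The tissue labels were checked on the promoters of marker genes. F2, the gene of prothrombin, which hepatocytes make, had a mean promoter level of 0.206 in liver, 0.842 in brain and 0.781 in heart, and all 3 hepatocyte markers with a promoter tile were lowest in liver. All 5 neuron markers were lowest in brain, but their medians were low everywhere, at 0.04 in liver, 0.014 in brain and 0.021 in heart. Of 3 oligodendrocyte and 3 astrocyte markers with a promoter tile, 2 of each were lowest in brain. The others, Mbp and Slc1a2, were lowest in heart. Of the 3 cardiomyocyte markers with a promoter tile, 2 were lowest in heart, among them Myl2, a myosin light chain of the ventricle, at 0.889 in liver, 0.807 in brain and 0.467 in heart, and Ryr2 was at 0.102, 0.102 and 0.111. Markers of other cells of the heart were often lowest there too. The endothelial markers were so for 4 of 5 genes, with a median promoter level of 0.762 in liver, 0.719 in brain and 0.4 in heart. Those of smooth muscle were lowest in heart for 4 of 4, those of fibroblasts for 3 of 4 and those of leukocytes for 2 of 2. The 3 fibroblast markers were at 0.074 or below in every tissue. Tcf21, the other, was highest in heart, at 0.122 in liver, 0.173 in brain and 0.291 in heart. Of the 2 leukocyte markers, Spi1 was at 0.777, 0.725 and 0.601 and Cd79a at 0.944, 0.925 and 0.917. The part of these other cells in the levels below was not tested. Over all tiles the mean level of liver was 0.653, that of brain 0.652 and that of heart 0.598, and the median difference was -0.035 for heart minus liver, -0.03 for heart minus brain and -0.0028 for brain minus liver. Read depth per library is unknown, since the tables give no coverage.

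A tile was called between tissues at an adjusted p of 0.01 or less (limma over all 758685 tiles) and a difference of means of 0.3 or more. The 3 comparisons share libraries, so each is given on its own. Between heart and liver, 55 member tiles were called, where the background over all tiles was 7.84%. Of these, 10 member tiles were called higher in heart, which is 2.39% against 2.35% of all tiles, and 45 were called lower, 10.8% against 5.49%. Among the 45, 22 lay in Gata4 and 17 in Gata6. Between heart and brain, 49 were called against a background of 5.87%. Of these, 24 were called higher in heart, 5.74% against 1.08% of all tiles, and 25 lower, 5.98% against 4.79%. Among the 24, 11 lay in Tbx5 and 6 in Tbx3, and of the 25, 15 lay in Gata4. Between brain and liver, 46 were called against a background of 7.18%. Of these, 6 were called higher in brain, all in Gata4, which is 1.44% against 3.68% of all tiles, and 40 lower, 9.57% against 3.5%. Some of these counts moved by over 1.5 times with the choice of tiles: the 10 became 17 at a difference of 0.25 and 6 with a window from 2 kb upstream, the 24 became 13 with that window, and with at least 2 CpGs per tile the 25 became 16 and the 6 became 3. Neighbouring tiles share fragments and genes, so that these are not independent counts. Of the 88 tiles, 51 were highest in liver, 20 in brain and 17 in heart, and 45 were lowest in brain, 36 in heart and 7 in liver. For all tiles outside promoters that differed, shares were taken in 3 classes of CpG number (0 to 2, 3 to 6, 7 or more). Across these classes, 45 to 62.1% were highest in liver, 25.7 to 46.6% in brain and 8.32 to 12.1% in heart. The lowest tissue was brain for 18.5 to 37.7%, heart for 40.4 to 54.7% and liver for 21.9 to 26.8%.

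The tiles just inside the 0.3 range were 2 of Gata6, at 0.308 and 0.309, and those just outside were 1 of Gata6 at 0.296 and 1 of Tbx5 at 0.298. The plot of differences by CpG number shows where the called tiles lie. Among tiles with 7 or more CpGs outside promoters, 13 of 67 (19.4%) differed by 0.3 or more, against 6.36% of all such tiles outside the promoters of any gene, and in all 13 the level was highest in liver, as it was in 62.1% of the tiles of this kind that differed over the whole table. Among tiles outside promoters with up to 2 CpGs, 40 of 114 (35.1%) did, against 16.4% of all such tiles. Of the 40, 20 were lowest in heart, where the share over the whole table was 54.7%.

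**Figure D1:**
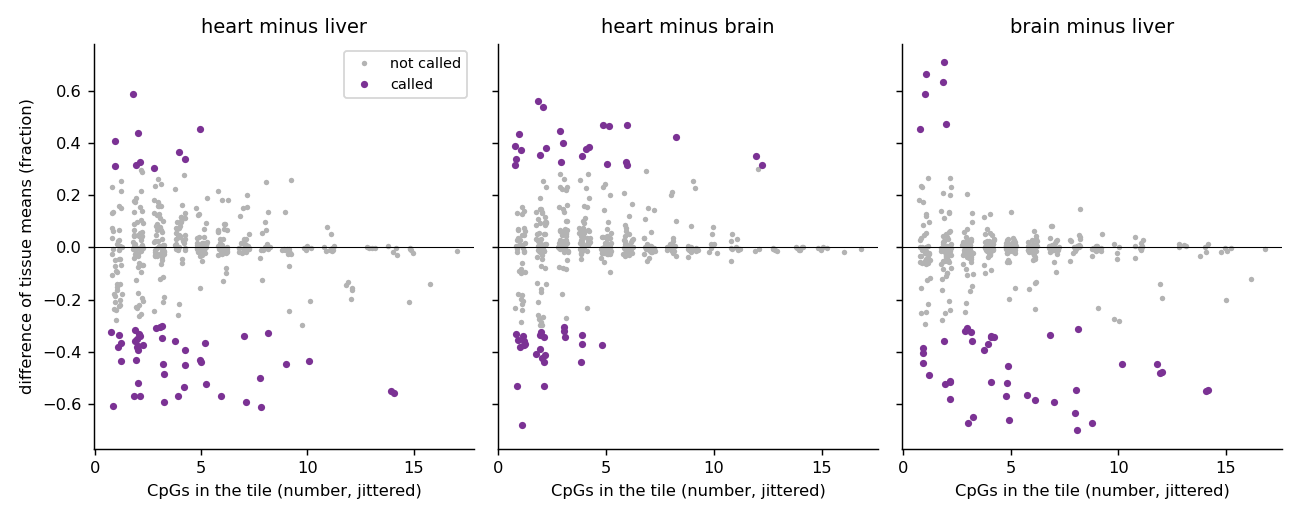
Difference of tissue means (fraction, y axis) against the number of CpGs in the tile (x axis, jittered) for the 418 member tiles, with 1 panel per comparison. Purple points are tiles called at an adjusted p of 0.01 or less and a difference of 0.3 or more, and grey points are the others. With 7 or more CpGs the 13 calls of brain minus liver and the 9 calls of heart minus liver are all below 0, and the 3 calls of heart minus brain are above 0.

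Promoters, taken as tiles within 1000 bp of a start, were nearly free of methylation in every tissue. Of 75 promoter tiles, 63 were below 0.1 in all 3 tissues. The promoter mean was below 0.1 in every tissue for 8 genes: Gata4, Gata6, Nkx2-5, Tbx5, Tbx20, Tbx3, Hand2 and Isl1. The only tile of Tbx5 that reached upstream of its start within 1000 bp had 0.237 in liver, 0.174 in brain and 0.302 in heart, so that with promoters taken upstream only Tbx5 lay above 0.1 in every tissue. Gata6, Nkx2-5 and Tbx20 had no promoter tile upstream of a start, and their promoter means describe the first 1000 bp of the gene. Across the 8 genes the means ran from 0.0122 in heart at Gata6 to 0.0833 in heart at Tbx5. At Gata4 the mean of 15 tiles stood at 0.0228 ± 0.0046 in liver (SD, n = 12), 0.0304 ± 0.007 in brain (n = 6) and 0.0189 ± 0.0033 in heart (n = 6). At Nkx2-5, an early marker of heart progenitors, it came to 0.0665 ± 0.0159 in liver, 0.0499 ± 0.0083 in brain and 0.0813 ± 0.0109 in heart. At Isl1, which marks progenitors of the second heart field, it was 0.0208 ± 0.0058, 0.0151 ± 0.0028 and 0.0126 ± 0.0022. Among these 8 genes the largest difference between tissue means was 0.0314, at Nkx2-5 between heart and brain.

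Small differences among these low promoters passed the test all the same. The counts that follow are over all 10 genes and include Hand1 and Mef2c, whose promoters were not low. Promoter means were compared by an exact two-sided permutation test over libraries, with p adjusted over all 18206 genes with promoter tiles and called at 0.05. Heart against brain is the smallest contrast, where 6 libraries against 6 cannot give a p below 0.0022. Heart was lower than brain at 5 of 10 genes (Gata4, Gata6, Tbx20, Tbx3 and Mef2c) against 22.7% of all genes, and higher at 1, Nkx2-5, against 11%. At the 5 genes other than Mef2c, heart minus brain ran only from -0.0108 at Gata6 to -0.0145 at Tbx3, at levels near 0. Whether such shifts exceed the error of the method was not tested. Heart was lower than liver at Tbx20, Mef2c and Isl1, against 36.9% of all genes, and higher at Hand1 alone, against 10.2%. Brain was higher than liver at 4 genes (Gata4, Tbx3, Hand1 and Mef2c) against 17% of all genes, and lower at 0 against 30.5%, with 2 at an unadjusted exact p under 0.05. At Nkx2-5 the difference of heart minus brain was 0.0314 (exact permutation test, adjusted p = 0.01).

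Hand1 and Mef2c stood apart, with promoter levels well above the others. Hand1, which acts in the left ventricle and in the placenta, had a promoter mean of 0.19 ± 0.0199 in liver (SD, n = 12), 0.302 ± 0.0403 in brain (n = 6) and 0.303 ± 0.0134 in heart (n = 6). Liver libraries ran from 0.158 to 0.237, brain libraries from 0.252 to 0.373 and heart libraries from 0.284 to 0.322. Every brain and heart library lay above every liver library. The difference of heart minus liver was 0.113 (exact permutation test, adjusted p = 0.00047) and that of brain minus liver was 0.112 (adjusted p = 0.00049, exact), while heart minus brain was 0.0006 (adjusted p = 0.99, exact).

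Mef2c, which is active in heart muscle, in neurons and in lymphocytes, has 4 starts in the annotation. Its promoter mean reached 0.368 ± 0.0215 in liver, 0.41 ± 0.0146 in brain and 0.248 ± 0.0312 in heart. Heart libraries ran from 0.221 to 0.293, below all liver libraries (0.336 to 0.403) and all brain libraries (0.385 to 0.426). The difference was -0.12 for heart minus liver (exact permutation test, adjusted p = 0.00047) and -0.161 for heart minus brain (exact, adjusted p = 0.01). The 6 promoter tiles were of 2 kinds, 3 below 0.1 in every tissue and 3 more methylated, of which 2 differed by 0.3 or more and lay 456 and 656 bp before an inner start.

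**Figure D2:**
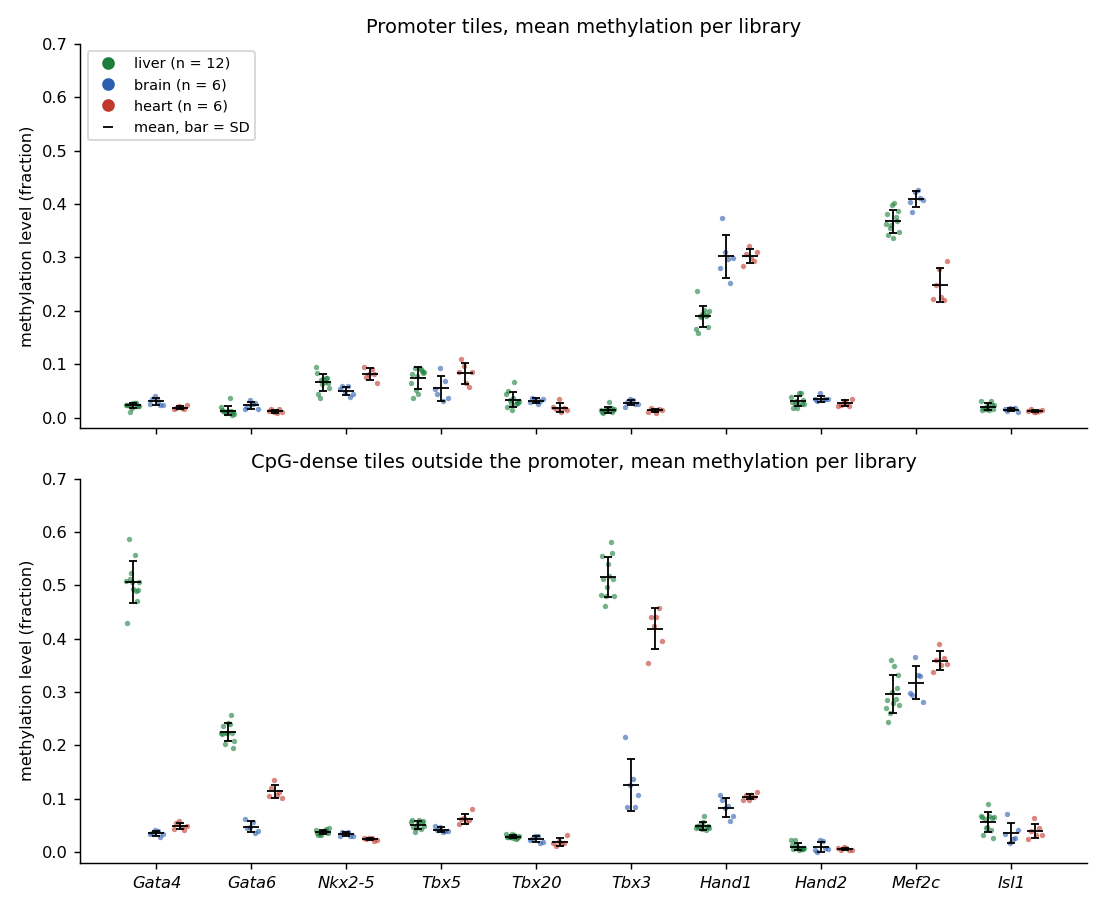
Mean methylation level (fraction, y axis) of the promoter tiles (top) and of the CpG-dense tiles outside the promoter (bottom) for each gene, with 1 point per library, and the mean and SD of 12 liver, 6 brain and 6 heart libraries in black. Every promoter point is at 0.111 or below except at Hand1 and Mef2c, and in the lower panel liver stands at 0.506 at Gata4 with brain and heart at 0.0356 and 0.049, while at Tbx3 brain stands lowest at 0.126.

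At Gata4, Gata6 and Tbx3, CpG-dense tiles outside promoters, with 7 or more CpGs in 100 bp, separated the tissues far more than promoters did. At Gata4 the mean of 6 such tiles was 0.506 ± 0.0397 in liver (SD, n = 12), 0.0356 ± 0.0043 in brain (n = 6) and 0.049 ± 0.0063 in heart (n = 6). Liver libraries ran from 0.429 to 0.587, and no brain or heart library exceeded 0.058. At Tbx3, a repressor that acts in the conduction system, the mean of 6 tiles stood at 0.515 ± 0.0374 in liver, 0.126 ± 0.0491 in brain and 0.419 ± 0.0379 in heart. Here brain was the tissue apart, with libraries from 0.0842 to 0.216 against 0.355 to 0.458 in heart. At Gata6, 18 tiles averaged 0.225 ± 0.0175 in liver, 0.0479 ± 0.0102 in brain and 0.114 ± 0.0127 in heart, 3 groups that did not overlap.

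The other genes had low or like levels at dense tiles. Except at Isl1, the largest difference between tissue means of each, Hand1 and Mef2c included, was larger at the promoter than at dense tiles. Nkx2-5, Tbx5, Tbx20, Hand2 and Isl1 had means from 0.0067 (Hand2, heart) to 0.0629 (Tbx5, heart). These depended on the minimum of 7 CpGs: with 5 or more, Tbx5 had 0.161 in liver, 0.135 in brain and 0.206 in heart, and Hand2, with 7 tiles in place of 1, had 0.0228, 0.0221 and 0.0428. Hand1 had 0.0493 ± 0.0071 in liver, 0.0835 ± 0.0177 in brain and 0.104 ± 0.0053 in heart, with liver lowest as at its promoter. Mef2c, with 2 tiles, had 0.296 ± 0.0355, 0.317 ± 0.0308 and 0.359 ± 0.0176. The higher of these 2 tiles reached 0.707, so that the Mef2c means join 2 tiles of unlike level. By the same exact permutation test over 9020 genes with dense tiles, heart was lower than liver at Gata4, Gata6, Nkx2-5, Tbx20 and Tbx3 (5 of 10, against 43.1% of all genes) and higher at Tbx5, Hand1 and Mef2c (3, against 7.75%). At Tbx20 this direction turned with tiles of 5 or more CpGs, where heart had 0.0608 and liver 0.0446, against 0.0193 and 0.0292 with 7 or more. Heart was higher than brain at 5 genes against 11.4% of all genes and lower at 1 against 23.7%. Among the 5 was Gata4, which turned with 5 or more CpGs, at 0.0885 in heart and 0.0958 in brain. Brain was lower than liver at 4 genes against 33% and higher at 1 against 14.4%. The difference of heart minus liver was -0.457 at Gata4 (exact, adjusted p = 0.00044), -0.111 at Gata6 (exact, adjusted p = 0.00044) and -0.0959 at Tbx3 (exact, adjusted p = 0.00044).

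Gata4, which with Gata6 is needed in both heart and endoderm, held 34 of the 88 tiles, 45.3% of its 75. Its promoter of 15 tiles stayed at 0.065 or below in every tissue. The next stretch was of another kind. From 3420 to 4620 bp after the start, 12 tiles with 79 CpGs between chr14:63240601 and 63241900 covered the end of intron 1 and exon 2 of 7, which holds the 5′ UTR and the first coding bases. Their mean was 0.618 ± 0.034 in liver (SD, n = 12), 0.075 ± 0.0097 in brain (n = 6) and 0.096 ± 0.0237 in heart (n = 6). The liver libraries spanned 0.548 to 0.665, the brain libraries 0.0632 to 0.0849 and the heart libraries 0.0773 to 0.133. Liver was the methylated tissue throughout, and all 12 tiles were called lower in both brain and heart.

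The printed exon tile at chr14:63241001, with 14 CpGs when the last base is counted with its neighbour, had liver libraries from 0.49 to 0.739 around a median of 0.56. Brain libraries ran from 0.023 to 0.057 (median 0.0345) and heart libraries from 0.026 to 0.059 (median 0.0365). No brain or heart library came near a liver library. The difference was -0.551 (SE 0.0271) for heart minus liver and -0.552 (SE 0.0271) for brain minus liver (limma, adjusted p = 7.8e-15 and 4.7e-15). Heart minus brain was 0.001 (SE 0.0313, limma, adjusted p = 0.99). The tile beside it at chr14:63241101, at the join of the 5′ UTR and coding sequence, had the largest range of this stretch. It ran in liver from 0.557 to 0.752 (median 0.675), in brain from 0.03 to 0.056 (median 0.0385) and in heart from 0.037 to 0.102 (median 0.0655), and heart minus liver was -0.612 (SE 0.0231, limma, adjusted p = 9.2e-17).

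**Figure D3:**
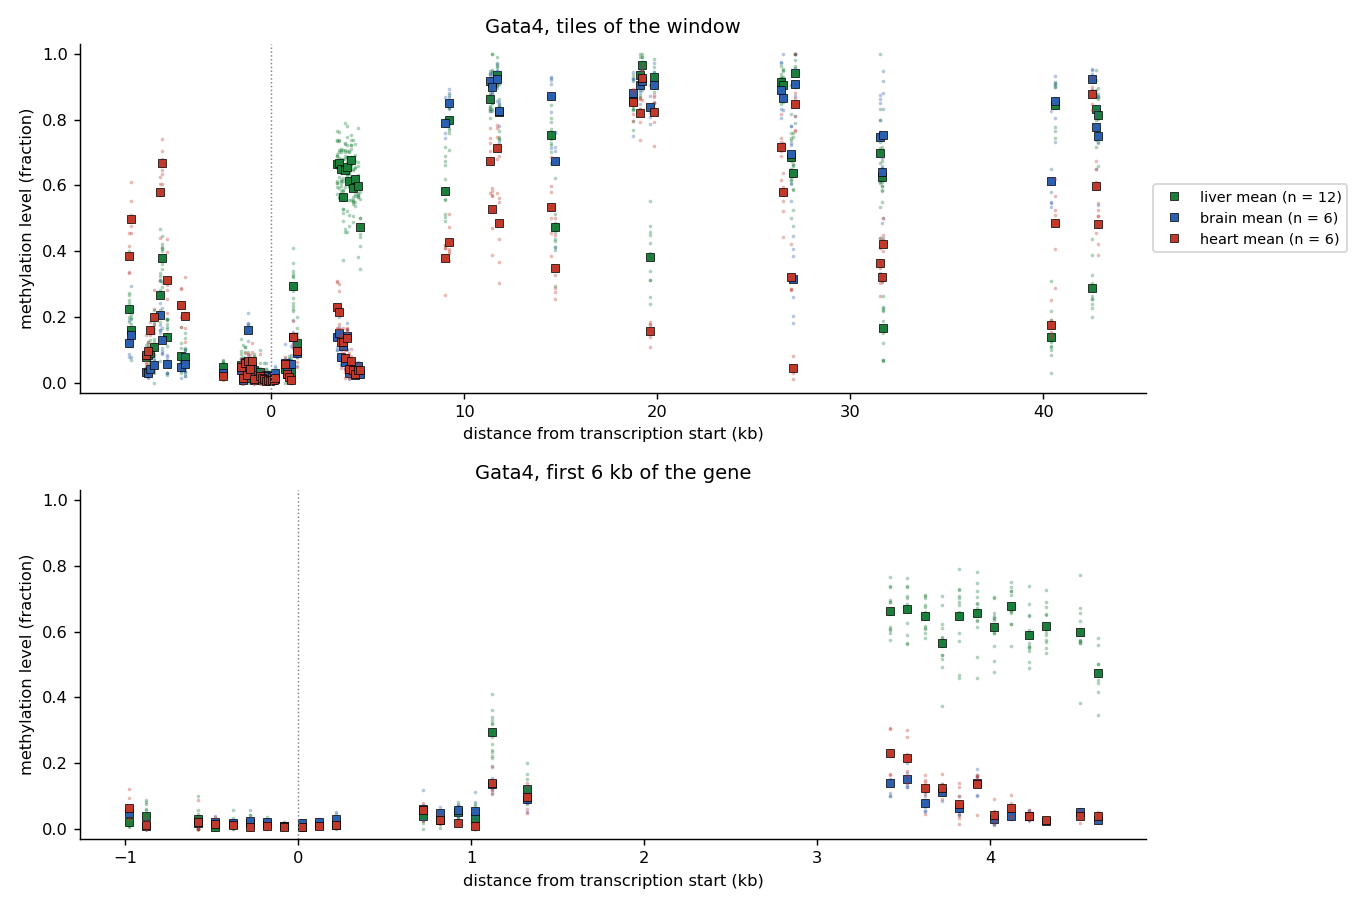
Methylation level (fraction, y axis) of the Gata4 tiles (all but 2 that are not reported) against distance from the transcription start (kb, x axis), over the whole window (top) and the start of the gene (bottom), with small points for single libraries and squares for the means of 12 liver, 6 brain and 6 heart libraries. Liver is high from 3420 to 4620 bp while brain and heart are low, and further into the gene heart is the lowest tissue at most tiles that differ.

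Along intron 2, the long intron of Gata4, the order changed. Of the 22 tiles that were called lower in heart than in liver, 12 were those of the exon 2 stretch and the other 10 began 9220 bp after the start or further in. At chr14:63236001-63236300 the mean of 2 tiles stood at 0.691 ± 0.0484 in liver, 0.821 ± 0.0276 in brain and 0.402 ± 0.0483 in heart. At chr14:63218201-63218400 it came to 0.663 ± 0.0872 in liver, 0.505 ± 0.0961 in brain and 0.182 ± 0.0351 in heart. In both, every heart library lay below every liver and brain library. At the printed tile of the second of these, chr14:63218201, liver libraries ran from 0.475 to 0.758 (median 0.66), brain libraries from 0.182 to 0.447 (median 0.324) and heart libraries from 0.011 to 0.08 (median 0.046). The difference of heart minus liver was -0.595 (SE 0.0402, limma, adjusted p = 3.2e-12). It ranked 12th in range among all member tiles.

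At other tiles of Gata4 brain was the highest tissue, as at chr14:63225601, a tile with 1 CpG, where liver ran from 0.238 to 0.553 (median 0.387), brain from 0.788 to 0.906 (median 0.83) and heart from 0.108 to 0.186 (median 0.169). Heart minus brain was -0.681 (SE 0.042, limma, adjusted p = 3.2e-12). Besides chr14:63236001-63236300, brain had the highest mean in 4 other runs that are named here. Those in intron 2 had means in liver, brain and heart of 0.613 ± 0.0552, 0.772 ± 0.1074 and 0.442 ± 0.0892 at chr14:63230501-63230800, and of 0.496 ± 0.0528, 0.714 ± 0.1632 and 0.368 ± 0.0381 at chr14:63213501-63213800. The run at exon 3, chr14:63204601-63204900, had 0.492 ± 0.0391, 0.736 ± 0.0726 and 0.33 ± 0.0583, and the run in intron 5, chr14:63202401-63202800, had 0.552 ± 0.0507, 0.836 ± 0.07 and 0.68 ± 0.0238. In the first 3 of these heart had the lowest mean, and in the last its mean lay between liver and brain. Single tiles departed from these orders. Liver was lowest at chr14:63204801, with 0.139 in liver, 0.614 in brain and 0.175 in heart. It was also lowest at chr14:63213501, with 0.165, 0.753 and 0.421. At chr14:63202401 liver was highest, with 0.814, and heart was lowest, with 0.482 against 0.75 in brain. At chr14:63202701-63202800, within the intron 5 run, liver stood alone at 0.2 to 0.436 (median 0.274), against 0.875 to 0.953 in brain (median 0.931) and 0.829 to 0.926 in heart (median 0.882), and heart minus liver was 0.589 (SE 0.0306, limma, adjusted p = 2.2e-14). Upstream, heart was the most methylated tissue: at 5680 to 5780 bp before the start, 2 tiles had 0.324 ± 0.0593 in liver, 0.168 ± 0.0513 in brain and 0.625 ± 0.0517 in heart. Another tile, 7280 bp before the start, had 0.159, 0.146 and 0.497.

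Gata6, the partner of Gata4, showed 19 tiles that differed among 62. No promoter tile exceeded 0.05. Behind the promoter, liver again rose: 2640 to 2940 bp after the start, 3 tiles at the end of exon 2 and in intron 2, with 19 CpGs, had 0.43 ± 0.0325 in liver (SD, n = 12), 0.098 ± 0.0181 in brain (n = 6) and 0.076 ± 0.0175 in heart (n = 6). The next stretch, chr18:11058801-11059500, spans exon 3 of 7 with its flanks, and its 6 tiles with 31 CpGs had 0.712 ± 0.0308 in liver, 0.1 ± 0.0207 in brain and 0.286 ± 0.043 in heart. All 6 were called lower in brain than in liver and 5 lower in heart. Libraries ran from 0.654 to 0.762 in liver, from 0.0695 to 0.12 in brain and from 0.248 to 0.349 in heart, 3 separate ranges.

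Within it the tile chr18:11059001-11059100, with 8 CpGs, had a range of 0.702, larger than at any other tile named here. In single libraries it ran in liver from 0.597 to 0.849 (median 0.789), in brain from 0.045 to 0.114 (median 0.0655) and in heart from 0.221 to 0.358 (median 0.268). Brain minus liver was -0.702 (SE 0.0318, limma, adjusted p = 1.0e-15). The difference of heart minus brain, 0.203 (SE 0.0367), was below the size needed for a call but had an adjusted p of 6.8e-05 (limma). The 4 other tiles of the stretch that ranked among the 12 with the largest range, chr18:11058901, chr18:11059101, chr18:11059201 and chr18:11059401, had liver medians of 0.772, 0.804, 0.759 and 0.841, brain medians of 0.0955, 0.135, 0.085 and 0.161, and heart medians of 0.314, 0.369, 0.319 and 0.371. Their lowest liver library was at 0.66, their highest heart library at 0.463 and their highest brain library at 0.306, so that liver overlapped neither tissue. Brain minus liver was -0.65 (SE 0.037) to -0.676 (SE 0.023) across them (limma, adjusted p of 8.5e-14 to 8.7e-18).

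Further into Gata6, heart became the lowest tissue, as at Gata4. At chr18:11064301-11064600 the mean of 3 tiles stood at 0.871 ± 0.038 in liver, 0.831 ± 0.0484 in brain and 0.531 ± 0.0635 in heart. At chr18:11065201-11065400 it was 0.687 ± 0.0751, 0.528 ± 0.1135 and 0.29 ± 0.0316. At chr18:11075601-11075900, in intron 6, it was 0.843 ± 0.0339, 0.547 ± 0.091 and 0.254 ± 0.0547. In these 3 runs every heart library lay below every liver and brain library. In intron 6 brain lay between liver and heart. The tile chr18:11075601, with 1 CpG, ran in liver from 0.767 to 0.923 (median 0.868), in brain from 0.397 to 0.707 (median 0.622) and in heart from 0.175 to 0.307 (median 0.236), and heart minus liver was -0.607 (SE 0.0363, limma, adjusted p = 3.1e-13). Upstream, 1 tile differed, chr18:11048001 in the gene Gata6os, which runs the other way, at 0.18 in liver, 0.168 in brain and 0.546 in heart. RRBS levels do not assign a tile to a strand or to either gene.

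Tbx5, which specifies atria, left ventricle and forelimb, had 14 tiles that differed among 72, and 12 of these were lowest in brain. Its exon 5 held the clearest rise in heart. Between chr5:119841801 and 119842100, 7188 to 7388 bp after the start, 3 tiles with 10 CpGs in exon 5 of 9 and intron 5 had 0.059 ± 0.0174 in liver (SD, n = 12), 0.03 ± 0.0055 in brain (n = 6) and 0.422 ± 0.0233 in heart (n = 6). At the printed tile chr5:119841801, liver libraries ran from 0.022 to 0.099 (median 0.0525), brain libraries from 0.029 to 0.065 (median 0.0395) and heart libraries from 0.493 to 0.551 (median 0.506). Heart alone was methylated, and its 6 libraries spanned less than 0.1. Heart minus liver was 0.456 (SE 0.0103, limma, adjusted p = 5.5e-20), and heart minus brain was 0.468 (SE 0.0119, limma, adjusted p = 1.1e-18). Brain minus liver was -0.012 (SE 0.0103, limma, adjusted p = 0.39).

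Brain was the low tissue at the other Tbx5 runs. In intron 7, chr5:119866601-119867000, 4 tiles with 18 CpGs had 0.39 ± 0.0354 in liver, 0.106 ± 0.0624 in brain and 0.45 ± 0.0812 in heart. Upstream, at 4812 to 5312 bp before the start and within the gene Gm5563, 4 tiles had 0.691 ± 0.0513 in liver, 0.283 ± 0.0531 in brain and 0.632 ± 0.0668 in heart, and all 4 were called lower in brain than in liver and higher in heart than in brain. The largest range of Tbx5 was in the first of these, chr5:119829301, with 0.657 in liver, 0.166 in brain and 0.507 in heart. This tile held 1 CpG, and its liver libraries spread from 0.462 to 0.863. At 2 tiles, chr5:119862701 in intron 7 and chr5:119873001 in intron 8, heart was lowest, at 0.493 and 0.405.

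Tbx3, the next gene on chromosome 5 and a repressor of the working heart muscle program, had 10 tiles that differed, all lowest in brain. The last but one of its exons, exon 7 of 8, held 6 of them at chr5:119680501-119681100, 55 CpGs in 600 bp. Their mean was 0.633 ± 0.0356 in liver (SD, n = 12), 0.126 ± 0.0559 in brain (n = 6) and 0.514 ± 0.0267 in heart (n = 6). Liver libraries ran from 0.562 to 0.681, heart libraries from 0.485 to 0.56 and brain libraries from 0.0813 to 0.234. All 6 were called lower in brain than in liver and 5 were called higher in heart than in brain. At the printed tile chr5:119680801 brain libraries ran from 0.063 to 0.21 (median 0.071), against 0.525 to 0.767 in liver (median 0.648) and 0.459 to 0.581 in heart (median 0.53). Heart minus brain was 0.424 (SE 0.0352, limma, adjusted p = 5.0e-10), and heart minus liver was -0.124 (SE 0.0304, limma, adjusted p = 0.0014).

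Upstream of Tbx3 lies the transcript Tbx3os1, within which 3 tiles differed. At 4812 to 5012 bp before the start of Tbx3, 2 of them had 0.631 ± 0.0421 in liver, 0.151 ± 0.0255 in brain and 0.256 ± 0.0306 in heart. Here heart was near brain rather than near liver, and the opposite held in exon 7. In exon 4, tile chr5:119675601 was highest in heart, at 0.334 in liver, 0.198 in brain and 0.516 in heart.

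**Figure D4:**
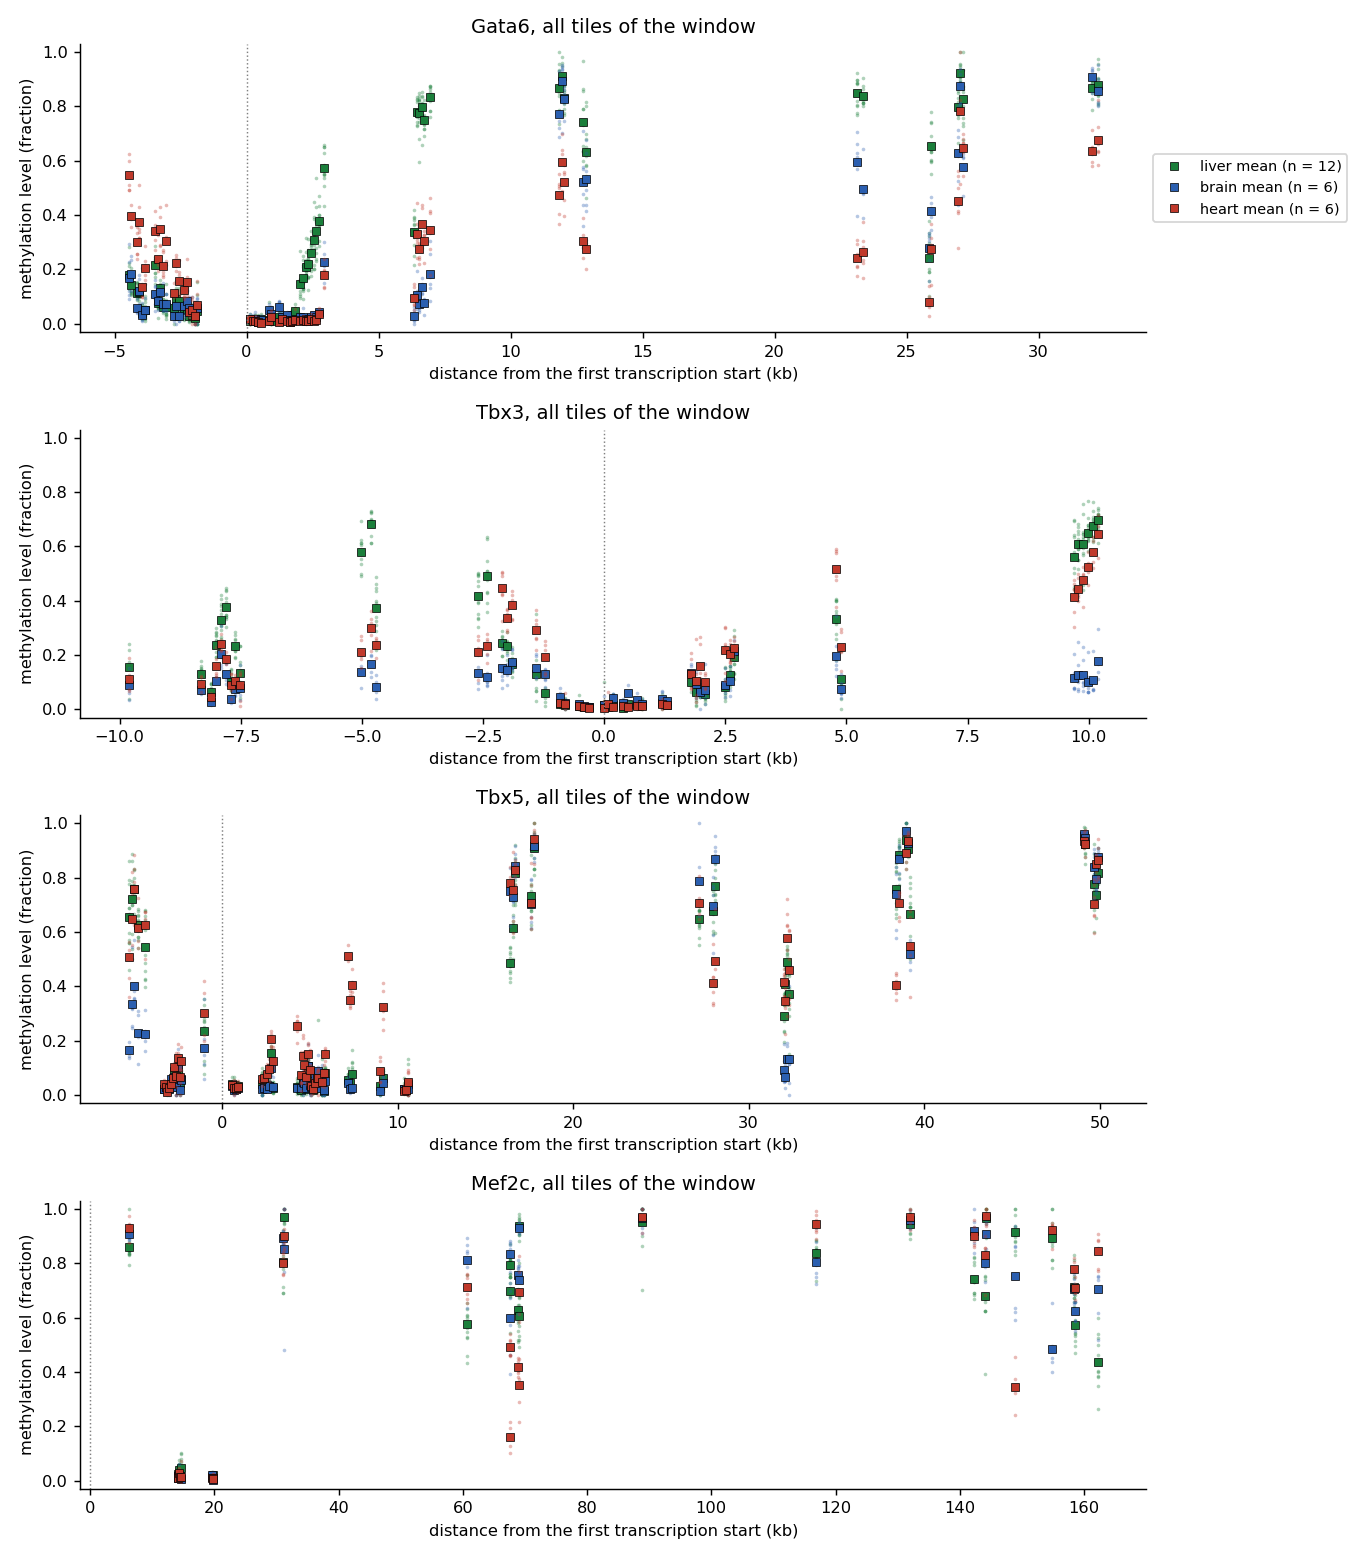
Methylation level (fraction, y axis) of the tiles of Gata6, Tbx3, Tbx5 and Mef2c against distance from the first transcription start (kb, x axis), with small points for single libraries and squares for the means of 12 liver, 6 brain and 6 heart libraries. Gata6 has liver high around 6540 bp and heart low from 11840 bp on, Tbx3 has brain low around 10088 bp, Tbx5 has heart high at 7188 bp, and Mef2c has heart low at 67516 and 148816 bp.

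Mef2c had 7 tiles that differed among 28, and heart was lowest at 5. It had 2 runs, both before an inner start, at 1956 to 2056 bp and at 456 to 656 bp. The first, chr13:83571501-83571700, had 0.745 ± 0.0421 in liver (SD, n = 12), 0.717 ± 0.0995 in brain (n = 6) and 0.327 ± 0.0166 in heart (n = 6), and the second, chr13:83572901-83573200, had 0.617 ± 0.0677, 0.748 ± 0.0342 and 0.384 ± 0.047. In both runs each heart library lay below each liver and brain library. At the printed tile chr13:83571501, liver libraries ran from 0.545 to 0.814 (median 0.707), brain libraries from 0.393 to 0.769 (median 0.623) and heart libraries from 0.103 to 0.217 (median 0.161). Heart minus liver was -0.536 (SE 0.0472, limma, adjusted p = 4.5e-10), and heart minus brain was -0.439 (SE 0.0544, limma, adjusted p = 3.6e-07).

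The largest range of Mef2c was in exon 8 of 11, at chr13:83652801-83652900, with 2 CpGs. Liver libraries ran from 0.832 to 1.0 (median 0.909), brain libraries from 0.592 to 0.938 (median 0.749) and heart libraries from 0.243 to 0.454 (median 0.338). Heart did not overlap the others, while liver and brain did. Heart minus liver was -0.572 (SE 0.0436, limma, adjusted p = 3.2e-11). Near the end of the gene the order turned: tile chr13:83666201 in the 3′ UTR rose from 0.438 in liver to 0.705 in brain and 0.845 in heart, and tile chr13:83658801 in intron 10 was lowest in brain, at 0.486.

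Tbx20, needed for heart chamber growth, had 2 tiles that differed, both upstream. At 4648 to 4848 bp before the start they had a mean of 0.441 ± 0.0754 in liver (SD, n = 12), 0.303 ± 0.0705 in brain (n = 6) and 0.778 ± 0.0645 in heart (n = 6). At the printed tile chr9:24778901, heart libraries ran from 0.548 to 0.857 (median 0.756), liver libraries from 0.071 to 0.467 (median 0.318) and brain libraries from 0.087 to 0.354 (median 0.129). Heart was above every other library. Heart minus liver was 0.44 (SE 0.0533, limma, adjusted p = 1.3e-07), and heart minus brain was 0.564 (SE 0.0615, limma, adjusted p = 4.8e-08).

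Hand1 had 2 tiles that differed by 0.3 and many small shifts in 1 direction. At an adjusted p of 0.01 or less with no size limit, 22 of its 29 tiles differed between heart and liver, and 21 of the 22 were higher in heart. Over all tiles 36.8% passed this p in that comparison. Its intron tile chr11:57829801 had 0.401 in liver, 0.632 in brain and 0.719 in heart. The tile with its largest range, with 1 CpG, lay 8404 bp before the start and went the other way. It had 0.534 in liver, 0.716 in brain and 0.356 in heart (heart minus brain -0.361, SE 0.061, limma, adjusted p = 3.0e-05). Its brain libraries spread from 0.553 to 0.958 and its heart libraries from 0.16 to 0.489.

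Hand2, Nkx2-5 and Isl1 had no tile with a range of 0.3, and 0 were called by limma in any comparison. At an unadjusted limma p under 0.05 Hand2 had 15 of 22 tiles in heart against liver, Nkx2-5 had 11 of 32 and Isl1 had 4 of 18, where 53.3% of all tiles passed. At an adjusted p of 0.01 or less these were 8, 3 and 3. Hand2, which acts in the right ventricle, had a tile in its intron, chr8:57323601, with heart libraries from 0.121 to 0.309 (median 0.207), liver libraries from 0.015 to 0.046 (median 0.026) and brain libraries from 0.017 to 0.059 (median 0.0425). Heart was above every other library there, by 0.181 over liver (SE 0.0164, limma, adjusted p = 7.5e-10). The largest range of Isl1, 0.205, lay 5962 bp before its start, at 0.72 in liver, 0.515 in brain and 0.624 in heart. That of Nkx2-5 was 0.116 at a tile 9686 bp before its start, with 0.374 in liver, 0.263 in brain and 0.378 in heart. Of the 32 tiles of Nkx2-5, 27 were below 0.1 in every tissue, as were 17 of 22 of Hand2 and 13 of 18 of Isl1.

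**Figure D5:**
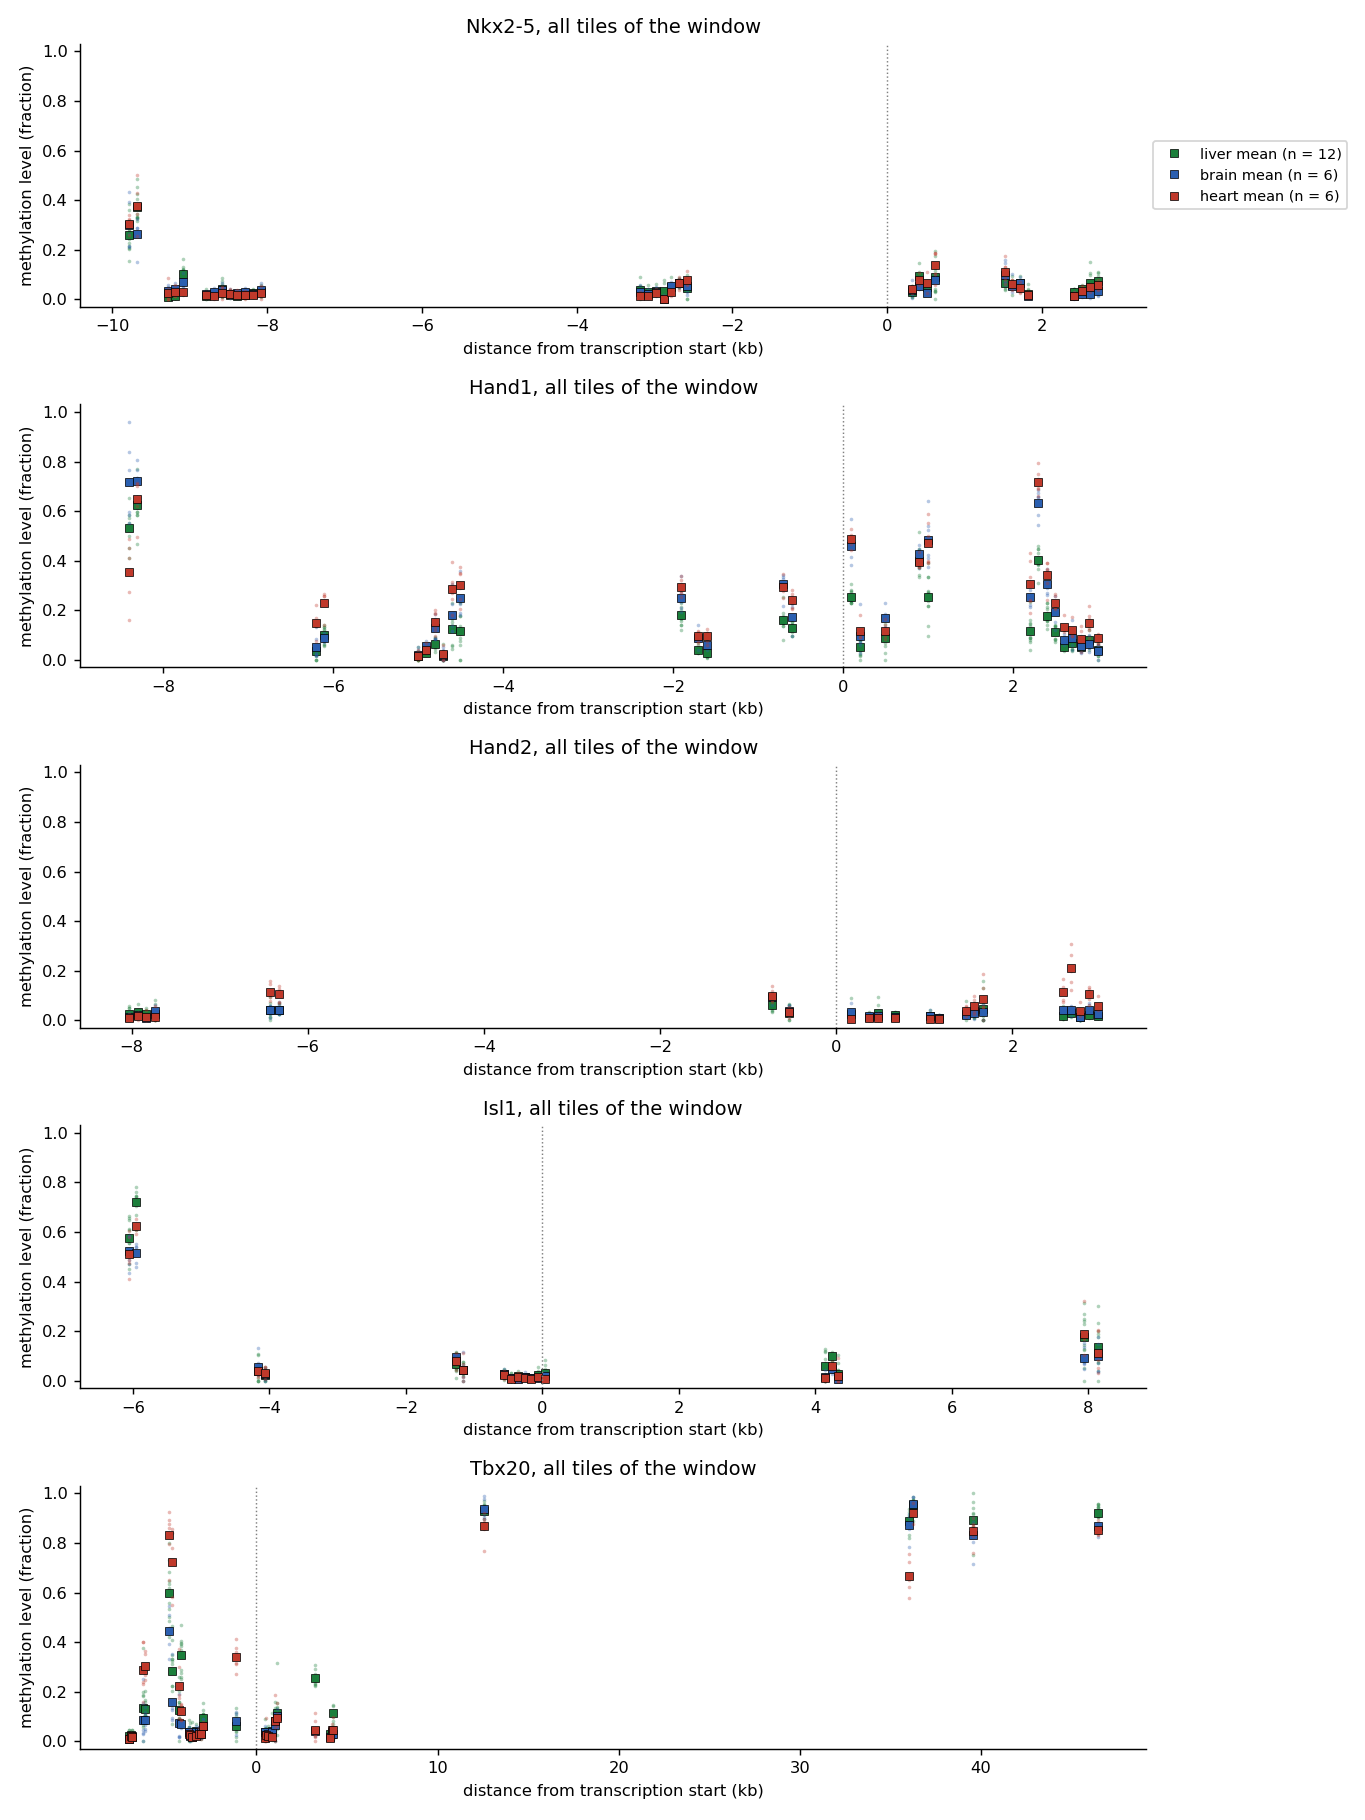
Methylation level (fraction, y axis) of the tiles of Nkx2-5, Hand1, Hand2, Isl1 and Tbx20 against distance from the transcription start (kb, x axis), with small points for single libraries and squares for the means of 12 liver, 6 brain and 6 heart libraries. Nkx2-5, Hand2 and Isl1 are low at most tiles in all tissues, Hand1 has liver below brain and heart at most tiles, and Tbx20 has heart high at 4648 bp before the start.

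A further 20 genes of the cardiac network held 876 tiles in all 3 tables, of which 124 (14.2%) differed by 0.3 or more, near the 13.7% of all tiles. For heart minus liver, 16 were called higher (1.83%, against 2.35% of all tiles) and 71 lower (8.11% against 5.49%). For heart minus brain, 5 were called higher (0.571% against 1.08%) and 36 lower (4.11% against 4.79%), and for brain minus liver 21 higher (2.4% against 3.68%) and 41 lower (4.68% against 3.5%). The genes with the most tiles that differed by 0.3 or more were Tead1, a partner of Yap, with 36 of 113 tiles, Meis1, a homeodomain protein that limits cell division in heart muscle, with 19 of 86, and Hopx with 17 of 54. At Tead1, 28 of the 36 were lowest in heart, and at Meis1, 14 of the 19 were lowest in brain. For comparison, 12 hepatocyte transcription factors had 139 of 522 tiles that differed (26.6%), with 88 lowest in liver, and 12 neural ones had 12 of 369 (3.25%). Of these 12 neural tiles, 2 were lowest in brain, 8 in liver and 2 in heart, and 10 were highest in brain. The 10 cardiac genes had 36 of 88 lowest in heart, against 45 lowest in brain. The whole-table shares given above for differing tiles outside promoters were 40.4 to 54.7% lowest in heart and 18.5 to 37.7% in brain. For liver they were 21.9 to 26.8%.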

How the data were processed

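The authors measured 24 libraries by RRBS (methyl miniseq, a commercial service). The submitters' processing notes name Bismark, methylKit and mm10, and the methods name methylKit 0.99.2. The authors joined CpG calls in 100 bp tiles. They required above 10 reads in each library of a tissue, dropped what lay over the 99.8th percentile of coverage, and deposited per tissue a table of methylation levels as a fraction, with no coverage or counts (liver 819713, brain 942643 and heart 930358 tiles, autosomes only). Depth is therefore unknown and no counting interval can be given.

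Here the tables were joined by position (758685 shared tiles), after a check that 99.84 to 99.86% of tiles hold a CpG of the mm10 sequence, against 55.3 to 55.5% for tiles moved by 100000 bp. Genes, starts and exons came from curated RefSeq transcripts (GRCm38.p6), and all 10 genes were found. No column names a mouse or gender, so columns were grouped by tissue. By their titles 6 mice gave all 3 tissues and 2 mouse numbers carry different genders in different tissues, and the tests treat libraries as independent. No 2 columns of a tissue were duplicates. Differences were fitted on fractions with limma 3.58.1 (R 4.3.3, trend in the variance prior), over all 24 libraries and all shared tiles, with Benjamini-Hochberg adjustment, and called at 0.01 and a difference of 0.3. Region means (promoter within 1000 bp of a start, or 7 or more CpGs outside promoters) were compared by exact permutation of libraries, adjusted over all genes and called at 0.05, since the smallest p of 6 against 6 libraries is 0.0022. In data simulated for heart minus liver over 758685 tiles, 47 of 50 differences of 0.4 and 41 of 50 of 0.35 were called, 0 of 50 of 0.2 and 0 of 50 of 0.1, and 0 of 758485 tiles without a difference. The differences were planted only in tiles of middle level, so recovery at tiles of very low or high level was not simulated. Noise was drawn independently for each tile, unlike in neighbouring tiles of the data.

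The text names, for each gene, the promoter and dense means, the tile with the largest range and each run of 2 or more tiles with a range of 0.3 at most 300 bp apart, plus the 12 tiles with the largest range over all genes. Of these, 2 adjoining tiles of Gata4 entered the counts but are otherwise not reported here. The 6 tiles printed as sequence, and single tiles outside these rules, were chosen after their values were seen. The genes and lists were chosen with earlier results of these data known.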

Additional observations from a re-analysis of the deposited data

Results flagged for a closer look

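Among the 6 brain and 6 heart libraries, 5 of 84 groups of values held 1 library that stood apart from the rest by Dixon's criterion, and chance alone gives about 1 in 20. At the Tbx20 tile chr9:24778901 the highest brain library had 0.354 and the next 0.167. At the Tbx3 tile chr5:119680901 the highest brain library had 0.216 and the next 0.115, and at the tile beside it, chr5:119680801, it had 0.21 and the next 0.118. Both Tbx3 values were in brain column 1. The Hand2 promoter mean had a highest brain library of 0.0453 with the next at 0.035, and the Tbx20 promoter mean had a highest heart library of 0.0355 with the next at 0.0195. Leaving out any 1 library, these included, did not end the call of the largest difference at any of the 3 tiles.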

How the results depend on the processing

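No paired analysis was possible because the columns carry no mouse number. Another coverage minimum could not be tried, since the tables hold no coverage. Of the 272 alternative values of the counts and region means, 34 moved. Leaving out each library in turn gave 87 to 91 tiles with a range of 0.3, 9 to 12 higher and 43 to 46 lower for heart minus liver, 22 to 26 and 24 to 29 for heart minus brain, and 6 to 7 and 40 to 41 for brain minus liver. Heart minus liver had 17 tiles higher at a difference of 0.25 and 6 with a window from 2 kb upstream, where heart minus brain had 13 higher. With at least 2 CpGs per tile, heart minus brain had 16 lower and brain minus liver 3 higher, and 70 tiles differed (this last one chosen after seeing the data). With promoters of 1000 bp upstream only, means were 0.0203 for Gata4 in brain, and in liver, brain and heart 0.237, 0.174 and 0.302 for Tbx5, 0.144, 0.24 and 0.268 for Hand1, and 0.0458, 0.0659 and 0.0657 for Hand2. With dense tiles of 5 or more CpGs, means in liver, brain and heart were 0.365, 0.0958 and 0.0885 for Gata4, 0.161, 0.135 and 0.206 for Tbx5, 0.0446, 0.0328 and 0.0608 for Tbx20, 0.0228, 0.0221 and 0.0428 for Hand2, and 0.455, 0.463 and 0.496 for Mef2c, with 0.198 for Gata6 and 0.426 for Tbx3 in liver, and 0.0587 and 0.123 for Hand1 in liver and heart. At this minimum the direction turned at Tbx20 and Hand2 for heart minus liver and heart minus brain and at Gata4 for heart minus brain, and with upstream promoters it turned at Tbx3 and Hand2 for heart minus liver. Of these turns, called differences were those of Tbx20 for heart minus liver and of Gata4. These settings change which tiles enter a mean. The other alternatives (log odds scale, no variance trend, 2 tissues at a time, adjusted p of 0.05, medians) kept every count within 1.5 times. At the 22 named tiles only the comparison with the largest difference was followed. None of these lost a call or turned. At the Nkx2-5 tile 3 alternatives brought heart minus brain below an adjusted p of 0.01 (limma). Other comparisons were not followed. Among them, brain minus liver at the Gata4 tile chr14:63218201 was called at -0.324, near the limit of 0.3.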

Other observations

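A further 44 tiles of the windows were in 2 tables and 18 in 1 table. Of the 44, 7 had tissue means that differed by 0.3 or more, and all 7 lacked liver. Tbx20 held 3 of them, each with 1 CpG in an intron 24152 to 25452 bp after its start, where heart was lower than brain: 0.197 against 0.621, 0.311 against 0.76 and 0.135 against 0.602. At Mef2c, the tile beside the one in exon 8 (chr13:83652701) had 0.119 in heart and 0.629 in brain. At Tbx3, 2 upstream tiles had 0.583 and 0.515 in heart against 0.219 and 0.176 in brain, and at Gata4 an upstream tile had 0.686 in heart against 0.285 in brain.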
